A study of Mus musculus with 15 samples.

Results

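The 6 mature names of the hairpins miR-873a, miR-325 and miR-3059 are described here, out of 1558 mature miRNA names counted in 15 mouse libraries of small RNA. They were picked by their measured levels: earlier results of these counts had shown them to be nearly absent outside brain, spinal cord, eye and whole embryos. Their restriction to those libraries is therefore a description and was not tested. Each library came from the RNA of 1 tissue or embryo stage of a commercial panel of mouse total RNA. 3 classes are used below. The nervous class holds the libraries of brain, eye and spinal cord, the embryo class those of embryos of 11, 15 and 17 days, and the other adult class those of heart, kidney, liver, lung, salivary gland, smooth muscle, spleen, stomach and testis. The labels name no genotype, strain, treatment, adult age or number of animals for any of these groups. The 17-day embryo carries that day in its title but another day in its source field, and the title was used. The counts of the 2 libraries are not identical, but they do not settle which day is right. Since no tissue or stage was sequenced more than once, intervals cover counting error only, and the spread behind each test is that among the libraries of a class, not among animals.

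A miRNA hairpin is cut by Drosha and Dicer into a short duplex. Either strand of that duplex can be loaded into an Argonaute protein, the 5p strand from the left arm of the hairpin or the 3p strand from the right arm. The loaded strand finds target mRNAs mainly through its seed, bases 2 to 8, and lowers their translation and stability. miR-325 belongs to a group of miRNAs that were cloned from cultured rat cortical neurons. miR-873a lies in a gene of a neuronal membrane protein.

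The mature strands are shown because each arm has a seed of its own, and the arms of a hairpin thus address different targets. Sequences are from RefSeq (GRCm38.p6), in which all 6 names were found, and capitals mark the seed. The prefix mmu-, for mouse, is left out after these lines.
mmu-miR-873a-5p: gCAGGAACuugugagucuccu
mmu-miR-873a-3p: gAGACUGAcaaguucccggga
mmu-miR-325-5p: cCUAGUAGgugcucaguaagugu
mmu-miR-325-3p: uUUAUUGAgcaccuccuaucaa
mmu-miR-3059-5p: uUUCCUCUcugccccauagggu
mmu-miR-3059-3p: cCUCUAGGgaagagaagguugg
No seed was shared between the 6 strands. Among 1679 mature miRNAs of the table, the seed of miR-873a-5p was also that of miR-6370, and the seed of miR-3059-5p that of miR-5616-5p. The other 4 seeds occurred in no other entry. miR-6370 is not among the counted names, and miR-5616-5p had at most 1 read per library. The strands begin with G for both arms of miR-873a, C and U for miR-325-5p and miR-325-3p, and U and C for miR-3059-5p and miR-3059-3p. Of the 1326 counted names with a sequence in the table, 40.4% begin with U and 12.2% with G.

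The hairpins are shown to place both strands, which capitals mark here.
mir-873a: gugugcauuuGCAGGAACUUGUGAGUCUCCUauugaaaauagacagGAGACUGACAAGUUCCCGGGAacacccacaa
mir-325: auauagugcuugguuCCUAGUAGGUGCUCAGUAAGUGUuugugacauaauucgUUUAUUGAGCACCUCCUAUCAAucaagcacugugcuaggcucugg
mir-3059: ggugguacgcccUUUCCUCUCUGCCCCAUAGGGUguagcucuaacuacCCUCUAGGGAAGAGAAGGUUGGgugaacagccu
In GRCm38, mir-873a lies on the minus strand of chromosome 4 from 36668510 to 36668586, mir-325 on the minus strand of chromosome X from 105379082 to 105379179, and mir-3059 on chromosome 10, plus strand, between 101772692 and 101772772. All 3 lie in introns of a host transcript on the same strand. The host of mir-873a is Lingo2, a leucine-rich repeat and immunoglobulin domain protein of neurons, that of mir-3059 is Mgat4c, an enzyme of the N-acetylglucosaminyltransferase family, and that of mir-325 is the long noncoding RNA 5330434G04Rik. Of 398 hairpins with a mature name of at least 100 reads, 37.4% lay in introns of the same strand. No 18-base stretch of the 6 strands occurred in any of the other 1069 miRNA genes of the table.

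Within 50 kb, mir-873a has 2 annotated neighbours and mir-325 has 1, and mir-3059 has none. Mir876 lies 23056 bases from mir-873a in the same host gene. Mir873b is the opposite strand of mir-873a itself. Its hairpin holds a stretch like miR-873a-5p that matches 18 of 21 bases, with the substitutions G1C, A3G and G13C counted from the 5′ end of miR-873a-5p. The name miR-873b is not among the counted names, so no level of it was measured here. Mir384, studied for its part in synaptic plasticity, lies 34712 bases from mir-325 on the same strand and outside the host transcript.

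Reads of the 6 names made up a small part of every library. The libraries held 148052 reads (testis) to 3161463 reads (brain) in all. The 3 nervous libraries had 3199 member reads among 7775360, the 3 embryos 685 among 6265685, and the 9 other adult libraries 14 among 15870436. Levels below are CPM, reads per 1000000 reads of the library, without other scaling unless stated. Of 10 miRNAs known as markers of a tissue or of embryos, 6 were highest under their own label. The exceptions were those for kidney, stomach, lung and smooth muscle. The library labelled smooth muscle held more of the kidney and gut miRNA miR-192-5p (35277 CPM) than kidney did (11396 CPM).

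miR-873a-5p was highest in brain and spinal cord and far lower in eye and embryos. It had 699 reads in brain (221 CPM, 95% interval 205 to 238), 407 in spinal cord (196 CPM, 177 to 216) and 94 in eye (37.1 CPM, 29.96 to 45.4). In embryos it had 22 reads at day 11 (14.6 CPM, 9.16 to 22.1), 80 at day 15 (37.5 CPM, 29.7 to 46.6) and 89 at day 17 (33.9 CPM, 27.2 to 41.7). Eye thus lay within the range of the embryos on this scale, and the 11-day embryo lay below all other libraries of both classes. Among other adult libraries heart had 2 reads, and lung, salivary gland, smooth muscle, spleen and stomach had 1 each. Kidney, liver and testis had none.

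miR-873a-3p, the less abundant strand, was likewise higher in brain and spinal cord than in eye and embryos, but stood higher in spinal cord than in brain. It had 150 reads in brain (47.4 CPM), 166 in spinal cord (79.9 CPM) and 29 in eye (11.4 CPM), against 6, 5 and 15 in the 11-, 15- and 17-day embryos (3.99, 2.34 and 5.71 CPM). The intervals of the embryos overlapped (1.46 to 8.68, 0.760 to 5.46 and 3.20 to 9.42 CPM), so these reads do not order the stages. All 3 nervous libraries lay above all 3 embryos, which also held for 14.9% of 693 names in unscaled CPM. No other adult library had a read, which at 3 reads allows up to 0.189 CPM over the 9 libraries together and up to 20.3 CPM in testis alone. The exact upper 95% limits for 0 reads are 0.232 CPM and 24.9 CPM.

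miR-3059-5p was almost the only strand counted from its hairpin, and it had the fewest reads of the 3 leading strands, 502 in all. It had 259 reads in brain (81.9 CPM, 72.2 to 92.5), 146 in spinal cord (70.3 CPM, 59.3 to 82.6) and 29 in eye (11.4 CPM, 7.66 to 16.4). The 11-day embryo had 2 reads (1.33 CPM, 0.161 to 4.80), the 15-day embryo 34 (15.9 CPM, 11.0 to 22.2) and the 17-day embryo 32 (12.2 CPM, 8.34 to 17.2). The intervals of eye and the later embryos overlapped. miR-3059-3p had 7 reads in spinal cord, 2 in brain and none elsewhere. Neither strand had a read in any of the 9 other adult libraries.

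miR-325 had another order, with spinal cord far above brain. The 11-day embryo lay below brain for the 5p strand, with overlapping intervals (31.0 to 52.1 and 48.0 to 64.9 CPM). For the 3p strand it lay above brain in unscaled CPM (71.0 to 101 and 44.5 to 60.8 CPM). miR-325-5p had 177 reads in brain (56.0 CPM), 295 in spinal cord (142 CPM) and 83 in eye (32.7 CPM), then 61, 33 and 27 in the 11-, 15- and 17-day embryos (40.5, 15.5 and 10.3 CPM). miR-325-3p had 165 reads in brain (52.2 CPM), 371 in spinal cord (179 CPM) and 120 in eye (47.3 CPM), then 128, 91 and 60 in the embryos (85.0, 42.6 and 22.9 CPM). For both strands the nervous and embryo ranges overlapped, and the level stood highest at day 11 among the embryos. In other adult libraries miR-325-5p had 1 read in each of lung, salivary gland, smooth muscle and spleen, and miR-325-3p 1 in each of lung, smooth muscle and spleen.

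**Figure D1:**
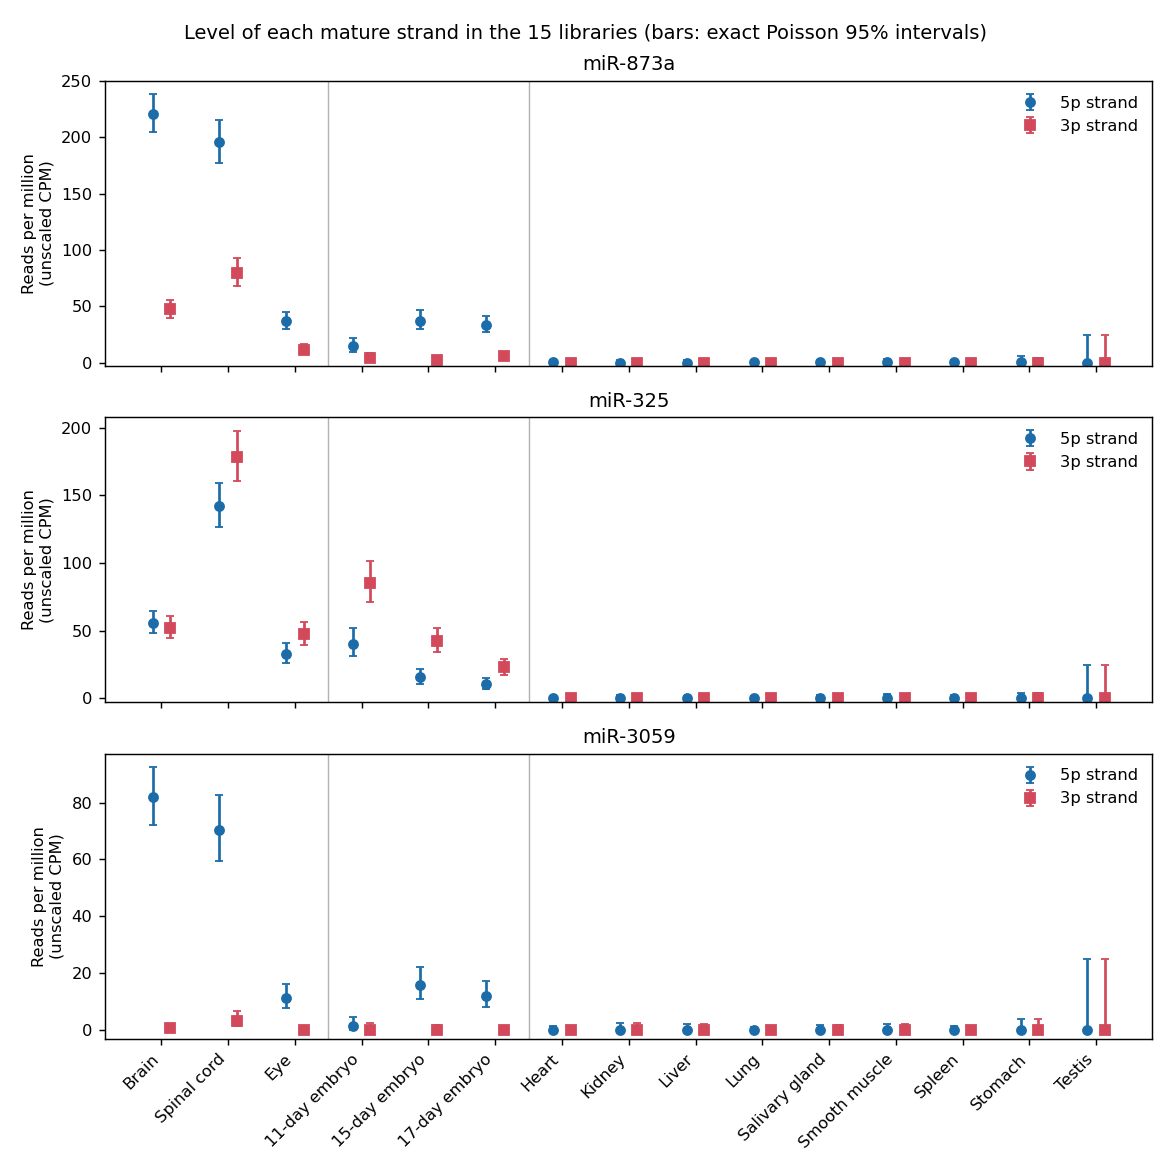
Level in CPM (linear axis) of the 5p strand (circles) and 3p strand (squares) of each hairpin in the 15 libraries, with exact Poisson 95% intervals for counting error. Spinal cord and brain stand highest for miR-873a and miR-3059, miR-325 is highest in spinal cord at 179 CPM for its 3p strand, and the 9 other adult libraries at the right lie near 0, with wide intervals for testis.

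For 5 of the 6 names, all but miR-3059-3p, the measured CPM of every nervous and embryo library lay above that of every other adult library. This was the basis of the pick, and among 718 names with at least 100 reads it held for 17.4%. Depth limits this order. For miR-3059-5p, 0 reads in testis leave up to 24.9 CPM (exact upper 95% limit), above the 1.33 CPM of the 11-day embryo. The 6 libraries held 99.3% of the summed CPM of miR-873a-5p, 99.4% of that of miR-325-5p, 99.7% of that of miR-325-3p, and all of that of miR-873a-3p and miR-3059-5p. Over all other adult libraries together, miR-873a-5p stood at 0.441 CPM (upper 95% limit 0.909) and miR-325-3p at 0.189 CPM (upper limit 0.552). The neuronal list, 12 miRNAs known from neurons such as miR-124-3p, summed there to between 467 CPM in liver and 7812 CPM in salivary gland, and none of its members was at 0 in any of these libraries. In bulk tissue, fewer cells of a type and less RNA per cell cannot be told apart.

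With both strands summed, the order of the libraries in unscaled CPM differed between hairpins. miR-873a stood at 276 CPM in spinal cord (254 to 299) and 269 in brain (251 to 287), a ratio of 1.03 (0.922 to 1.14). miR-3059 also had about equal levels in both, 73.6 and 82.6 CPM, a ratio of 0.892 (0.726 to 1.09). miR-325 stood 2.96-fold higher in spinal cord (320 CPM, 297 to 346) than in brain (108 CPM, 97.0 to 120), with an interval of 2.60 to 3.39. These intervals compare the libraries and not the tissues. The oligodendrocyte list, 4 miRNAs that include miR-219a-5p and miR-338-3p, summed to 49610 CPM in spinal cord and 13208 in brain, with no member at 0, and the neuronal list to 152602 and 263422. The part of this cell makeup in the miR-325 difference was not tested.

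Eye had the lowest level of the 3 nervous libraries for each hairpin. miR-873a was 5.54-fold lower in eye than in brain (4.58 to 6.74) and miR-3059 7.22-fold lower (4.91 to 11.0). miR-325, at 80.1 CPM in eye, was 1.35-fold lower (1.13 to 1.62). That last direction turned with TMM scaling, which accounts for differences in the makeup of the libraries, to an eye to brain ratio of 1.01. It did not turn with RLE, another scaling of that kind, where the ratio was 0.844. The eye list, 6 miRNAs of sensory cells, pigment epithelium or lens such as miR-204-5p and miR-183-5p, summed to 201259 CPM in eye and 5331 in brain, and its part in these differences was not tested.

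Across embryo stages, miR-325 moved against the other hairpins. It stood at 126 CPM at day 11 (108 to 145), 58.1 at day 15 (48.3 to 69.2) and 33.1 at day 17 (26.5 to 40.9), so that day 17 was 3.79-fold below day 11 (2.92 to 4.94). miR-873a stood at 18.6 CPM at day 11 (12.4 to 26.9), 39.8 at day 15 and 39.6 at day 17, a ratio of day 17 to day 11 of 2.13 (1.39 to 3.36). miR-3059 rested on 2 reads at day 11, and its ratio of day 15 to day 11 was 12.0 (3.07 to 103). In unscaled CPM the intervals of days 15 and 17 overlapped for miR-873a and for miR-3059. The intervals of neighbours in the order of miR-325 overlapped only between the 11-day embryo and brain.

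As a result the makeup of the member reads changed with stage. miR-325 gave 86.3% of the reads of the 3 hairpins at day 11 (81.0 to 90.6), 51.0% at day 15 (44.6 to 57.5) and 39.0% at day 17 (32.6 to 45.8). Its share was 23.6% in brain (21.4 to 25.8), 47.8% in spinal cord (45.2 to 50.5) and 57.2% in eye (51.9 to 62.4). miR-873a gave 12.8% at day 11 and 46.6% at day 17, against 58.5% in brain, where it led. These shares compare hairpins within a library and do not depend on scaling between libraries.

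**Figure D2:**
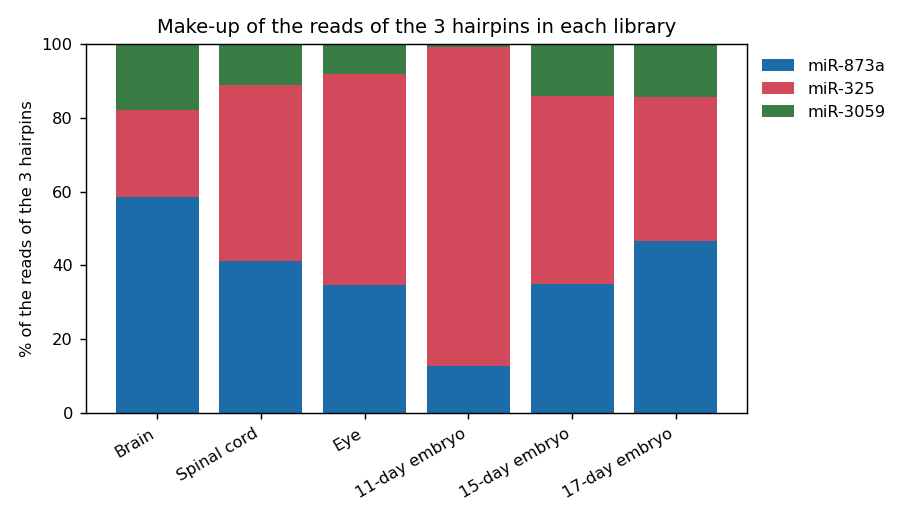
Percent of the reads of the 3 hairpins (bars start at 0 and sum to 100) that came from miR-873a, miR-325 and miR-3059 in each nervous and embryo library. The miR-325 part is largest in the 11-day embryo at 86.3% and smallest in brain at 23.6%.

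The order also depended on what the reads were set against. TMM factors were 1.92 to 2.25 in embryos and 0.825 to 1.36 in nervous libraries, so TMM scaling lowered embryo levels. On that scale all 3 nervous libraries lay above all 3 embryos for each hairpin, and the same order held for 28% of the 693 names. miR-325 stood at 237 in spinal cord, 97.0 in eye, 95.7 in brain and 56.0 CPM in the 11-day embryo. Its 3p strand alone stood at 46.2 CPM in brain and 37.9 CPM in the 11-day embryo, the reverse of their order in unscaled CPM. The last scale was the number of reads per 1000 reads of the neuronal list, which includes miR-9, known from neural progenitors as well. On it miR-325 was highest in spinal cord (2.10, 1.94 to 2.27) and the 11-day embryo (1.37, 1.18 to 1.58) and lowest in brain (0.411, 0.368 to 0.457). miR-873a was highest in spinal cord (1.81) and brain (1.02) and lowest in the 11-day embryo (0.202). The stages also differed from the CPM picture. miR-325 was about level between days 15 and 17 (0.655 and 0.663), and miR-873a stood at 0.449 at day 15 (0.358 to 0.555) and 0.792 at day 17 (0.647 to 0.960), with intervals apart. miR-3059 ranged from 0.482 in spinal cord (0.409 to 0.565) to 0.0145 in the 11-day embryo, with 0.313 in brain (0.277 to 0.354). On this scale spinal cord thus stood above brain for each of the 3 hairpins, with intervals apart. The about equal levels of miR-873a and miR-3059 in these 2 libraries held in unscaled CPM only. On all 3 scales the 11-day embryo was the lowest of the 6 libraries for miR-873a and miR-3059, and spinal cord the highest for miR-325.

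**Figure D3:**
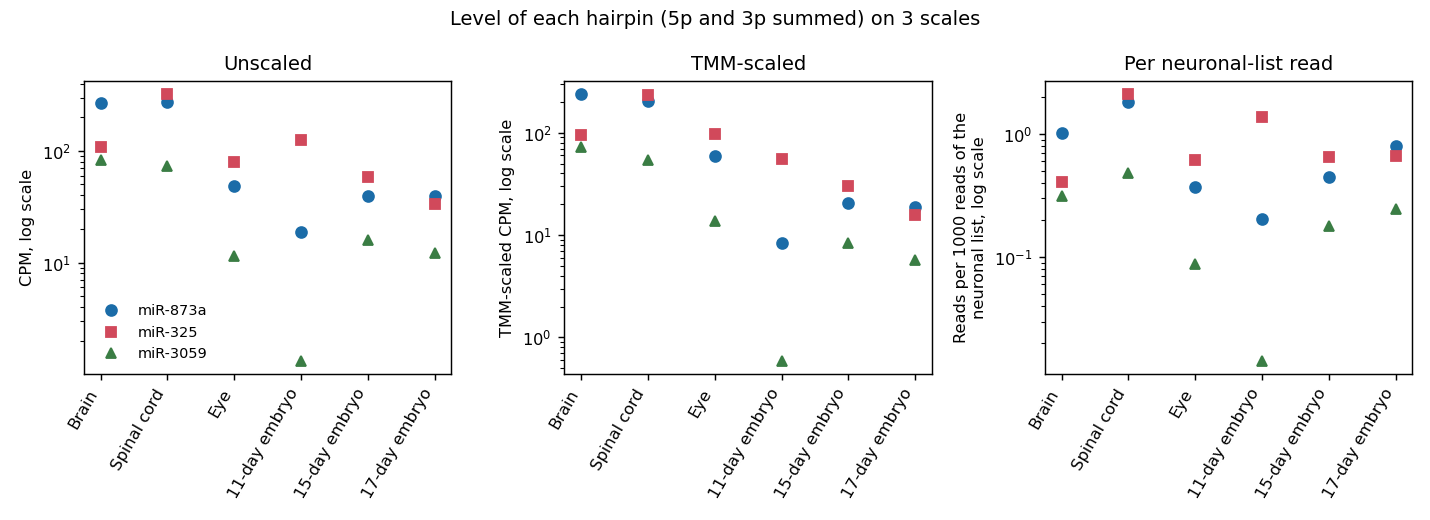
Level of each hairpin (5p and 3p summed, log axes) in the nervous and embryo libraries as unscaled CPM, as TMM-scaled CPM and per 1000 reads of the neuronal list. miR-325 (squares) falls from 126 to 33.1 CPM between the 11- and 17-day embryos, while miR-873a (circles) and miR-3059 (triangles) are lowest in the 11-day embryo on each scale.

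The contrast of nervous libraries with embryos was not used in the pick. It was tested over the 693 names that passed the filter on low counts, by the edgeR quasi-likelihood fit. Of these, 14.3% were higher in the nervous class and 11.7% lower at an adjusted p under 0.05. Of the 6 members 5 passed the filter. miR-873a-3p reached the filter level of 4.80 CPM in all nervous libraries but in 1 embryo, miR-3059-5p in 2 embryos, and the other 3 strands in every library of both classes. miR-873a-3p and miR-3059-5p thus passed only through the nervous class, where they are higher. For these strands the filter was not independent of the contrast.

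Both strands of miR-873a were called higher in the nervous class, but the call on miR-873a-3p is not independent of the filter. miR-873a-5p had a TMM-scaled mean of 128 CPM ± 76.7 (SD, n = 3) in nervous libraries and 14.0 ± 6.72 in embryos (SD, n = 3), so that the log2 fold change was 3.19 ± 0.84 (SE, edgeR adjusted p = 0.013). miR-873a-3p, which passed the filter only through the nervous class, had 38.3 ± 22.8 against 1.90 ± 0.75. Its log2 fold change was 4.29 ± 0.87 (edgeR adjusted p = 0.013). Without the 11-day embryo both calls were lost (edgeR adjusted p = 0.053 and 0.054), and that on miR-873a-3p also without the 15-day embryo (0.055). With no filter on low counts the call on miR-873a-5p was lost (edgeR adjusted p = 0.064).

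The strands of miR-325 fell on either side of the threshold. miR-325-5p was higher in the nervous class, at 64.7 CPM ± 35.1 against 10.3 ± 6.89 (SD, n = 3 each), a log2 fold change of 2.64 ± 0.80 (edgeR adjusted p = 0.025). miR-325-3p had 78.4 ± 46.5 against 23.6 ± 13.6, a log2 fold change of 1.73 ± 0.80 that did not pass (edgeR adjusted p = 0.12). The call on miR-325-5p was lost with scaling to total counts alone (edgeR adjusted p = 0.13), with no filter (0.104), and without spinal cord (0.086), the 15-day embryo (0.090) or the 17-day embryo (0.091). Its log2 fold change was 3.35 without the 11-day embryo.

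miR-3059-5p stood at 46.1 CPM ± 29.7 in the nervous class and 4.88 ± 3.92 in embryos (SD, n = 3 each), a log2 fold change of 3.22 ± 1.11 that did not pass (edgeR adjusted p = 0.069). It passed with DESeq2 (adjusted p = 0.038) and when only the 6 libraries entered the edgeR fit (0.036). It did not pass with RLE scaling (edgeR adjusted p = 0.074), with no filter (0.14) or with scaling to total counts (0.15). As this strand passed the filter only through the nervous class, calls made after that filter are not independent of the contrast. Without the 15-day embryo its log2 fold change was 3.81. In counts simulated for this contrast over 670 names, the fit recovered 2.04% of the 4-fold changes and 45.4% of the 16-fold changes. The simulated names had the same mean level in embryos and other adult libraries, which the members do not. These rates therefore do not give the chance of a call for miR-3059-5p or the other members. Scaling to total counts lowered the median log2 fold change of all names by 0.89, so the changes above hold relative to that shift.

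The miRNAs of the neuronal list are the measured background of neural content. Of its 12 members 5 were higher in the nervous class than in embryos by edgeR and 0 were lower, by DESeq2 or at an unadjusted p under 0.05 as well. The median log2 fold change was 3.75 against 0.04 for all names, 2.68 without brain and 2.78 with scaling to total counts. With scaling to total counts, or without any one of the embryos, 3 were higher, and with DESeq2 7 were. Of the oligodendrocyte list 2 of 4 were higher, miR-338-3p and miR-338-5p. Of the eye list 3 of 6 were higher, and 0 with DESeq2, with scaling to total counts, or without eye or any one of the embryos. In the edgeR fit all 6 had an unadjusted p under 0.05. Within the neuronal list miR-129-2-3p (7.19 ± 2.01, adjusted p = 0.018) and miR-129-5p (6.06 ± 1.77, adjusted p = 0.021) had the largest differences in edgeR. miR-218-5p (0.92 ± 1.33, adjusted p = 0.64) and miR-153-3p (0.35 ± 1.09, adjusted p = 0.84) had the smallest, and miR-153-3p was lower in the nervous class in unscaled CPM (means of 939 and 1329). miR-384, the neighbour of miR-325, was higher in both strands, miR-384-5p by 3.94 ± 1.18 (adjusted p = 0.023) and miR-384-3p by 3.06 ± 1.05 (adjusted p = 0.043). Both calls were lost without spinal cord, without any one of the embryos, with scaling to total counts and with no filter (edgeR adjusted p = 0.052 to 0.079 for miR-384-5p and 0.080 to 0.15 for miR-384-3p). The call on miR-384-3p was also lost without brain (0.073) or salivary gland (0.051).

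The share of the 5p strand among 5p and 3p reads was not used in the pick and set the hairpins apart. miR-3059 gave 98.2% 5p over all libraries (502 of 511 reads, exact Clopper-Pearson 95% interval 96.7 to 99.2) and miR-873a 79.0% (77.1 to 80.9), while miR-325 used both arms, with 42.0% (39.6 to 44.5). Of the 287 hairpins that reached 20 reads in 4 or more of the 6 nervous and embryo libraries, miR-325 ranked 10 in nearness to equal use of the arms.

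miR-325 had a lower measured 5p share in each embryo than in each nervous library. The share was 51.8% in brain (46.3 to 57.2), 44.3% in spinal cord (40.5 to 48.2) and 40.9% in eye (34.1 to 48.0), against 32.3% at day 11 (25.7 to 39.4), 26.6% at day 15 (19.1 to 35.3) and 31.0% at day 17 (21.5 to 41.9). The means were 45.6% ± 5.6 and 29.97% ± 3.0 (SD, n = 3 each), and the measured shares of the classes did not overlap. The interval of eye overlapped those of all 3 embryos, and that of spinal cord overlapped that of day 17. Of the 248 hairpins that reached 20 reads in all 6 libraries, 27.4% had all nervous shares above all embryo shares and 25.8% the reverse. In the edgeR fit of arm and class over 276 hairpins the log2 odds of 5p were 0.97 ± 0.40 higher in the nervous class, which did not pass (adjusted p = 0.059). limma on log2 ratios of the strands gave 0.96 ± 0.29 and passed (adjusted p = 0.044). By edgeR 20.7% of the hairpins had more 5p in the nervous class, and by limma 15.9%.

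The neighbouring miR-384, with far more reads, also had lower 5p shares in all embryos than in all nervous libraries. Its 5p share was 47.6% in brain (46.3 to 48.8, 6122 reads), 41.7% in spinal cord (40.6 to 42.8, 7582 reads) and 46.4% in eye (44.1 to 48.6). In the 11-, 15- and 17-day embryos it was 29.0%, 32.8% and 28.4%, each from at least 644 reads. The edgeR log2 odds were 0.94 ± 0.26 higher in the nervous class (adjusted p = 0.0077), and the adjusted p was at most 0.043 without any single library of the 6. In level miR-384 stood, as miR-325 did, higher in spinal cord (3649 CPM) than in brain (1936 CPM), and it stood at 479, 344 and 245 CPM at days 11, 15 and 17. Its order differed from that of miR-325 in the 11-day embryo, which lay far below brain, and in eye, which lay above each embryo at 759 CPM. miR-876, the neighbour of miR-873a, had 7 reads in brain, 5 in spinal cord and 2 in the 15-day embryo, too few for a share.

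The 5p share of miR-873a pointed the other way, with overlapping classes. It was 82.3% in brain (79.6 to 84.8), 71.0% in spinal cord (67.1 to 74.7) and 76.4% in eye (67.9 to 83.6), against 78.6% at day 11 (59.0 to 91.7, 28 reads), 94.1% at day 15 (86.8 to 98.1) and 85.6% at day 17 (77.3 to 91.7). The means were 76.6% ± 5.7 and 86.1% ± 7.8 (SD, n = 3 each). The edgeR log2 odds were -1.08 ± 0.52 (adjusted p = 0.10), -1.37 without the 11-day embryo (adjusted p = 0.033) and -0.57 without the 15-day embryo (adjusted p = 0.496). By edgeR 17.4% of hairpins had more 3p in the nervous class.

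Within the nervous class the intervals of brain and spinal cord lay apart for miR-873a, by 11.3 points, with more 3p in spinal cord. For miR-384 they lay apart by 5.89 points in the same direction. Those of miR-325 (7.46 points) and miR-3059 (99.2% and 95.4% 5p, 3.81 points) overlapped. Over 269 hairpins 10.8% had intervals apart with more 5p in brain and 8.92% with less, and the median difference was 0.02 points. For miR-3059 the 3p strand had 9 reads in the nervous class and 0 of 68 reads in embryos, which leaves a 5p share there of at least 94.7% (exact lower limit). No difference in its arm use was detectable at this depth.

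**Figure D4:**
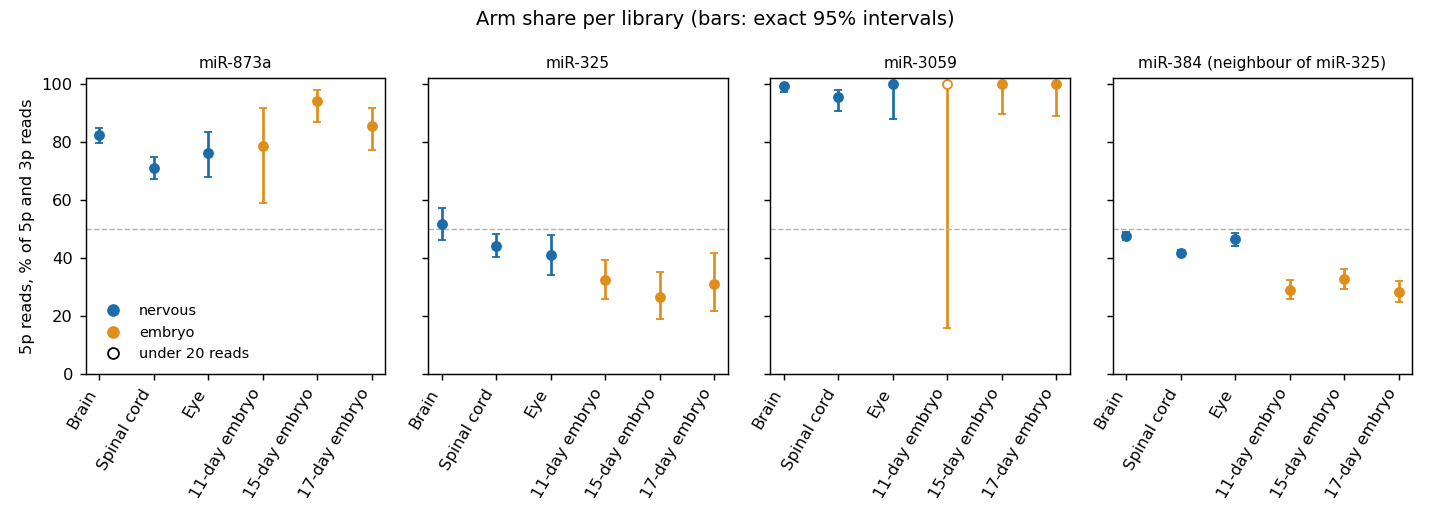
Percent of 5p reads among the 5p and 3p reads of miR-873a, miR-325, miR-3059 and the neighbouring miR-384 in each nervous and embryo library, with exact 95% intervals and open symbols for under 20 reads. The embryo shares of miR-325 (26.6% to 32.3%) and miR-384 lie below their nervous shares, and those of miR-873a overlap.

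The miRNAs with the highest likeness over the 15 libraries were found by Pearson r of log2(CPM + 1) with the leading strand, among names with at least 100 reads. In 9 of these 15 libraries the members lie near 0, as the pick required, so r over the 6 nervous and embryo libraries is given as well. Nearest to miR-873a-5p were miR-344b-3p (r = 0.98, n = 15 libraries), miR-3059-5p (0.98) and miR-770-3p (0.97). Nearest to miR-3059-5p were miR-873a-5p, miR-544-5p (0.96) and miR-344b-3p (0.96), so that miR-873a-5p and miR-3059-5p appeared in each other's list although they lie on different chromosomes. Highest for miR-325-3p were miR-323-5p (0.96), miR-344f-5p (0.96) and miR-370-5p (0.95), but over the 6 libraries r was 0.57, -0.04 and 0.31. miR-344f-5p had 13 reads in spinal cord (6.26 CPM), where miR-325-3p was highest. That was close to its 17 reads in eye (6.70 CPM) and 18 in the 15-day embryo (8.43 CPM). miR-323, miR-370, miR-544 and miR-770 belong to the imprinted Dlk1-Dio3 region, and the miR-344 family is known from brain. Over the 6 libraries miR-873a-5p had r = 0.97 with miR-3059-5p, 0.93 with miR-344b-3p and 0.70 with miR-770-3p (n = 6). With miR-325-5p it had 0.64 and with miR-325-3p 0.38. The other strand, miR-873a-3p, had 0.83 with miR-325-5p, 0.58 with miR-325-3p and 0.80 with miR-3059-5p. miR-3059-5p had 0.83 with miR-544-5p and 0.84 with miR-344b-3p.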

How the data were processed

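The authors deposited read counts per mature miRNA name, 1 file per library. Per the labels' protocols, spike-in RNAs were added, the small RNA fraction was cut from a gel, and the ligated adapters had randomized ends (AQ-seq, meant to lower ligation bias). Per the submitters' processing notes, bcl2fastq 1.8.4, cutadapt, BWA, bedtools and build mm10 were used; the sources used here give neither their options nor the handling of multiply mapping reads. Unlisted names were taken as 0. Spike-ins were not used here.

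CPM were computed from library totals, with exact Poisson and Clopper-Pearson 95% intervals (scipy 1.17.1). PCR reads are not independent molecules. Abundance and arm usage were tested with edgeR 4.0.16 and checked on simulated data, with Benjamini-Hochberg adjustment of p. DESeq2 1.42.0 and limma 3.58.1 served as alternatives. The abundance fit used all 15 libraries, TMM scaling and filterByExpr. The arm fit used 6 libraries and hairpins that reached 20 reads in 2 or more libraries of each class. Members, marker lists and tests were chosen with earlier results of these data known. Other names given are hairpins within 50 kb, the 3 most similar names per leading strand, names sharing a seed, and the neuronal list with its 2 largest and 2 smallest differences. No batch is named in the labels.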

Additional observations from a re-analysis of the deposited data

Results flagged for a closer look

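Among the 9 other adult libraries, miR-384-5p, the neighbour of miR-325, stood apart in the library labelled smooth muscle, at 17.4 CPM (30 reads) against 8.16 CPM in salivary gland, the next highest. The gap was 0.548 of the whole range, above Dixon's 95% critical value for 9 samples. Of the 8 groups screened, those of miR-873a-3p, miR-3059-5p and miR-3059-3p had 0 reads throughout and could not be flagged. Chance alone gives such a value in about 1 in 20 groups drawn from 1 normal distribution. The 9 libraries here are different tissues, so that rate is only a guide. The same library had 1 read each of miR-873a-5p, miR-325-5p and miR-325-3p.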

How the results depend on the processing

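For the nervous and embryo classes, edgeR called 180 names by abundance (99 higher in the nervous class, 81 lower), 119 with no filter on low counts (52 lower) and 272 with only the 6 libraries (133 lower). With scaling to total counts 43 were higher and 115 lower. Leaving out 1 library gave 95 to 200 calls, 49 to 110 higher and 31 to 92 lower. The count was 95 without the 11-day embryo, 107 without brain, 110 without spinal cord and 116 without the 15-day embryo. Arm usage gave 105 calls (57 with more 5p, 48 with more 3p) and, without 1 library, 71 to 115, 40 to 62 and 31 to 53, the last lowest without the 15-day embryo. The arm difference of miR-3059, with 0 reads of its 3p strand in embryos, was -2.16 on the log2 odds scale in edgeR (-0.72 without spinal cord, -2.90 without brain) and 0.81 in limma. The cause was not tested. With TMM and RLE scaling the spinal cord to brain ratio of miR-873a was 0.857 and 0.894 and that of miR-325 was 2.47 and 2.58. With TMM the eye to brain ratio was 0.247 for miR-873a and 1.01 for miR-325. The other level ratios and the class means of arm shares moved by less than their interval or SD. No paired analysis was possible because the labels give no replicate numbers. With 1 library per tissue, the intervals on differences between neighbouring tissues cover counting error alone, and variation among animals was not measured.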
